A study of Mus musculus with 18 samples.

Results

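The genes described here are 10 imprinted genes of a growth network: H19, Igf2, Plagl1, Peg3, Dlk1, Meg3, Mest, Grb10, Cdkn1c and Ndn. They were chosen by symbol, with earlier results of these data known. A gene entered with a probeset whose annotation names that gene alone (the brightest, had there been several). Of 15300 probesets, 13592 had 1 symbol, and 8 of the 10 genes had such a probeset, 1 each. Meg3 shares its only annotated probeset with Dlk1, and Mest is not analysed here. The study measured gene expression in whole gastrocnemius, a calf muscle, of male C57BL/6 mice aged 2, 11 or 25 months. Each age had 6 biological replicates on an array of their own, which gave 18 Affymetrix whole-transcript arrays, and no treatment or genetic change is stated for any group. Muscle from both legs was frozen and its ribosomal RNA was depleted before labelling. Values are log2 of the deposited intensity, and an error is the standard deviation (SD) over 6 arrays unless it is named as a standard error (SE).

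An imprinted gene is transcribed mainly from the copy of one parent, and many genes of this kind set the pace of growth before and shortly after birth. The network holds paternally expressed genes such as Igf2, Dlk1, Plagl1 and Peg3 and maternally expressed ones such as H19, Grb10 and Cdkn1c. In mice several of them are highly transcribed in fetal and neonatal tissues and are turned down together as body growth slows, and in muscle some are known from satellite cells, the stem cells of the fibre. An array probe does not separate the parental copies, so each signal here is the sum of both.

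Between 2 and 11 months 5 of the 8 measured genes fell (H19, Peg3, Plagl1, Igf2 and Grb10), 0 rose, and Dlk1, Cdkn1c and Ndn did not pass the test. Between 11 and 25 months 0 of 8 passed in either direction. Between 2 and 25 months the 5 genes that had fallen by 11 months were again the ones called lower. The test was limma's moderated statistic with Benjamini-Hochberg adjustment over all 15300 probesets and a threshold of 0.05. As background, 7.18% of all probesets were called lower and 11.9% higher at 11 than at 2 months. Every array of 11 months lay below every array of 2 months for 3 of the 8 genes (H19, Peg3 and Plagl1) and for 2.37% of all probesets. The median log2 change of the 8 genes was -0.30 and that of all probesets -0.02. In the comparison of 25 with 2 months 6.95% of probesets were called lower and 10.5% higher. There 4 of the 8 genes had no overlap between the ages, the 3 above and Grb10, against 2.93% of all probesets. The 2-month arrays enter both comparisons, so the second is not separate evidence. Because the genes were chosen with earlier results known, their counts beside the shares of all probesets are a description and not a test.

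**Figure D1:**
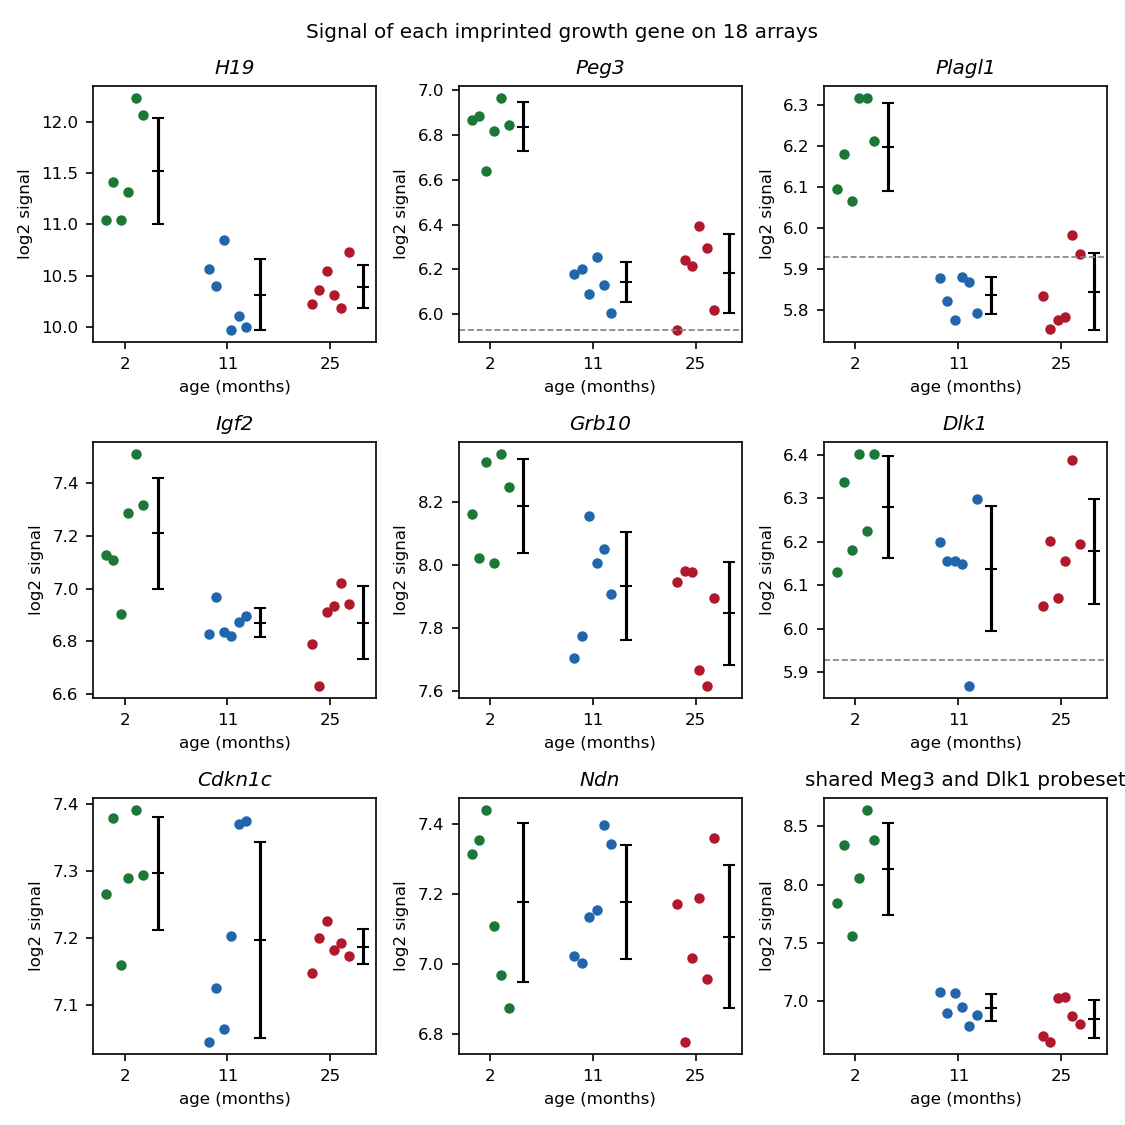
Signal (log2) of the 8 measured genes and of the probeset shared by Meg3 and Dlk1, by age in months. Each point is 1 array, 6 per age, bars are the mean and SD, and the dashed line is the background mark of 5.93 where it falls within a panel's range. H19, Peg3, Plagl1 and the shared probeset stand apart at 2 months from both later ages, while Dlk1, Cdkn1c and Ndn overlap at all ages.

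Median intensity per array ran from 97.6 to 101 units. The 4 measured myofibre markers (Acta1, Ckm, Tnnt3 and Mb) summed to between 51086 and 55551 intensity units on every array, so the labelled tissue carried its markers at each age. One array stood apart in keratinocyte genes: replicate 4 of 11 months had a Krt14 signal of 8.39 and a sum over 6 keratinocyte markers of 1375 intensity units. Replicate 5 of 11 months summed to 622 and replicate 3 of 25 months to 485, and the other 15 arrays lay between 290 and 401. Without these 3 arrays H19, Peg3, Plagl1 and Igf2 were still called lower at 11 than at 2 months (limma adjusted p between 9.7e-05 and 0.0448), and Grb10 was not (adjusted p = 0.0659). A probeset was called near background where its mean lay under 5.93, the 95th percentile of 310 olfactory and vomeronasal receptor probesets, which are not muscle genes.

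H19 is a long noncoding RNA made from the maternal copy and next to Igf2 on chromosome 7, with 0 protein-coding genes between them in the RefSeq table. At 2 months its lowest, median and highest log2 signals were 11.04, 11.36 and 12.23. At 11 months they were 9.97, 10.26 and 10.85, and at 25 months 10.19, 10.34 and 10.73. The lowest 2-month array lay above the highest array of either later age, and replicates 5 and 6 of 2 months were the highest of all, at 12.23 and 12.07. H19 fell from 11.52 ± 0.51 at 2 months to 10.32 ± 0.35 at 11 months, a 2.30-fold fall (log2 change -1.20, SE 0.19, limma adjusted p = 0.000309). At 25 months it was 10.40 ± 0.21, which is 2.18-fold below 2 months (adjusted p = 0.000384). The SD was largest at 2 months, where the arrays spanned 11.04 to 12.23. Without replicate 5 of 2 months the log2 change at 11 months was -1.06 (adjusted p = 0.000696).

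H19 is also the host transcript of miR-675, and Igf2 hosts miR-483. Their mature sequences are given because a change of the host RNA is the only measurement bearing on them here: the arrays measured the hosts, not the small RNAs. They come from RefSeq on GRCm38.p6, minus strand of chromosome 7, with the seed (bases 2 to 8) in capitals. The 4 seeds differ from each other.
mmu-miR-675-5p: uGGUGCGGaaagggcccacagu
mmu-miR-675-3p: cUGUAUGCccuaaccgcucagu
mmu-miR-483-5p: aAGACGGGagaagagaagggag
mmu-miR-483-3p: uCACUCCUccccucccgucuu

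Igf2 encodes a secreted growth factor that signals through the type 1 insulin-like growth factor receptor and is cleared by the receptor Igf2r. Its lowest, median and highest log2 signals were 6.90, 7.21 and 7.51 at 2 months. They were 6.82, 6.85 and 6.97 at 11 months, and 6.63, 6.92 and 7.02 at 25 months. Most later arrays lay below the young ones, but the ages overlapped: 5 of 6 arrays of 11 months and 2 of 6 of 25 months were below the lowest young array, replicate 3 of 2 months. Igf2 fell from 7.21 ± 0.21 to 6.87 ± 0.06 at 11 months, a 1.26-fold fall (log2 change -0.34, SE 0.08, limma adjusted p = 0.00703). At 25 months it stood at 6.87 ± 0.14, again 1.26-fold below 2 months (adjusted p = 0.00606). The fall at 11 months was not called (log2 change -0.25, adjusted p = 0.122) when signal range, taken per array as the interquartile range over probesets, entered the fit as a covariate. Signal range itself moved with age, from 2.03 to 2.35 on arrays of 2 months and from 2.25 to 2.45 on those of 11 months. For any call lost in this fit the parts of range and age therefore cannot be told apart. Signal from whole muscle falls alike when cells of a type become fewer and when each holds less RNA, and these cannot be told apart.

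Plagl1 encodes a zinc-finger transcription factor that, in mice, is placed upstream of H19, Igf2, Dlk1 and Cdkn1c. Its log2 signals at 2 months were lowest at 6.07, with a median of 6.20 and a highest of 6.32. The corresponding values were 5.78, 5.85 and 5.88 at 11 months and 5.76, 5.81 and 5.98 at 25 months. All arrays of 2 months lay above all later arrays. Plagl1 fell by 11 months (log2 change -0.36, SE 0.05, limma adjusted p = 0.000156) and was lower at 25 than at 2 months (-0.35, adjusted p = 0.000121). Its means of 5.84 ± 0.05 and 5.85 ± 0.09 at the later ages lie under the background mark, with 6 of 6 arrays under it at 11 months and 4 of 6 at 25 months. The later level is therefore not distinguished from background, no fold is given, and a further fall after 11 months would not have been visible.

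Peg3 encodes another zinc-finger protein, a DNA-binding regulator expressed from the paternal copy and known in muscle from progenitor cells. Its lowest, median and highest signals were 6.64, 6.86 and 6.97 at 2 months. They were 6.00, 6.16 and 6.25 at 11 months, and 5.93, 6.23 and 6.39 at 25 months. The young arrays stood clear of every later array, and 1 array of 25 months lay under the background mark. Peg3 fell from 6.84 ± 0.11 to 6.14 ± 0.09, which is 1.62-fold and the smallest adjusted p of the 8 genes (log2 change -0.69, SE 0.07, limma adjusted p = 4.6e-06). At 25 months it was 6.18 ± 0.18, a 1.58-fold difference from 2 months (adjusted p = 3.21e-06).

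The start regions of Peg3 and Plagl1 are shown because both genes fell with no overlap between ages. Each runs from 250 bases before to 50 bases after the RefSeq start on GRCm38.p6: chr7:6730370-6730669 on the minus strand for Peg3 and chr10:13090582-13090881 on the plus strand for Plagl1. Capitals mark matches to 2 motifs, the GC-rich core GGGGCCCC described for Plagl1 binding and the E-box CANNTG read by MyoD-like factors. Both motifs read the same on either strand, and no match to one overlapped the other.
Peg3: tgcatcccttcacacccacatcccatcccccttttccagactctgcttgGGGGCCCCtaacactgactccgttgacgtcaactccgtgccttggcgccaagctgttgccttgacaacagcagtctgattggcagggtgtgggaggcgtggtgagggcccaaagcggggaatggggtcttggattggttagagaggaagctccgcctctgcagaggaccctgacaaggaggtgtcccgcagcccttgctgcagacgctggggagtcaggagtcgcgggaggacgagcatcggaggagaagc
Plagl1: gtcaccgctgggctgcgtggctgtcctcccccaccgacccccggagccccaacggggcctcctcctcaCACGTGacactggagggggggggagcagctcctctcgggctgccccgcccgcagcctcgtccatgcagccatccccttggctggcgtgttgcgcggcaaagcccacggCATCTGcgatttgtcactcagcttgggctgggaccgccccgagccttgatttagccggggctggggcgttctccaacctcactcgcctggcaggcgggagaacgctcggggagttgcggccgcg

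The Peg3 window held the GC-rich core once, and it was the only one of 15 windows of network genes to hold it. Those 15 covered 8 of the 10 genes, Meg3 and Mest among them, while H19 and Cdkn1c had no window. Over all 32851 windows of the same length 1.08% held the core. Plagl1 had 2 E-boxes and Peg3 had 0, and 72.3% of all windows held at least 1. CG dinucleotides numbered 26 in the Plagl1 window and 13 in that of Peg3, against a median of 7. These are descriptions of letters and not of binding.

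Dlk1 encodes a membrane protein of the Notch ligand family that restrains differentiation, expressed from the paternal copy. Its lowest, median and highest log2 signals were 6.13, 6.28 and 6.40 at 2 months, 5.87, 6.16 and 6.30 at 11 months, and 6.05, 6.18 and 6.39 at 25 months. The 3 ages overlapped, and replicate 5 of 11 months, the lowest array, was under the background mark. The log2 change from 2 to 11 months was -0.14 (95% interval -0.29 to 0.01, limma adjusted p = 0.157) and from 2 to 25 months -0.10 (-0.25 to 0.05, adjusted p = 0.365). Both intervals include 0. Without replicate 5 of 11 months the change by 11 months became -0.09, and in the fit with signal range as covariate it was 0.01.

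Meg3, the maternally expressed noncoding RNA beside Dlk1, had no probeset to itself. The probeset annotated to both genes had log2 signals of 7.56, 8.20 and 8.64 (lowest, median, highest) at 2 months, 6.79, 6.93 and 7.08 at 11 months and 6.65, 6.84 and 7.04 at 25 months. Its 2-month arrays were above all later ones. The signal fell 2.29-fold by 11 months (log2 change -1.19, SE 0.13, limma adjusted p = 9.51e-06) and was 2.44-fold lower at 25 than at 2 months (adjusted p = 1.36e-06). It cannot be assigned to either gene and is not counted among the 8.

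The other 3 genes restrain growth or the cell cycle. Grb10 encodes an adaptor that binds the insulin and insulin-like growth factor receptors and dampens their signal. Its lowest, median and highest signals were 8.01, 8.21 and 8.36 at 2 months, 7.71, 7.96 and 8.16 at 11 months, and 7.61, 7.92 and 7.98 at 25 months. The arrays of 2 and 11 months overlapped, and those of 25 months all lay under those of 2 months. Grb10 was 1.27-fold lower at 25 than at 2 months (log2 change -0.34, SE 0.09, limma adjusted p = 0.00931). Its 1.19-fold fall by 11 months passed narrowly (log2 change -0.25, SE 0.09, adjusted p = 0.0469). That call was lost without any 1 of 13 of the 18 arrays, namely replicates 1, 3, 5 and 6 of 2 months, 1, 2, 4, 5 and 6 of 11 months and 1, 2, 3 and 6 of 25 months. Adjusted p over all alternatives was 0.00534 to 0.0974.

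Cdkn1c encodes p57, an inhibitor of cyclin-dependent kinases. Its lowest, median and highest signals were 7.16, 7.29 and 7.39 at 2 months, 7.04, 7.16 and 7.37 at 11 months, and 7.15, 7.19 and 7.23 at 25 months. All ages overlapped, and the 25-month arrays lay closest together, with an SD of 0.03 against 0.15 at 11 months. The log2 change from 2 to 11 months was -0.10 (95% interval -0.22 to 0.02, limma adjusted p = 0.223), and from 2 to 25 months -0.11 (-0.23 to 0.01, adjusted p = 0.219). Ndn encodes necdin, a growth-suppressing protein of the MAGE family expressed from the paternal copy. Its lowest, median and highest signals were 6.88, 7.21 and 7.44 at 2 months, 7.0, 7.15 and 7.40 at 11 months, and 6.78, 7.09 and 7.36 at 25 months. The 3 ages overlapped, and the median of each lay within the range of the others. Its log2 change was 0.00 from 2 to 11 months (95% interval -0.22 to 0.22, adjusted p = 0.998) and -0.10 from 2 to 25 months (-0.32 to 0.12, adjusted p = 0.573).

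**Figure D2:**
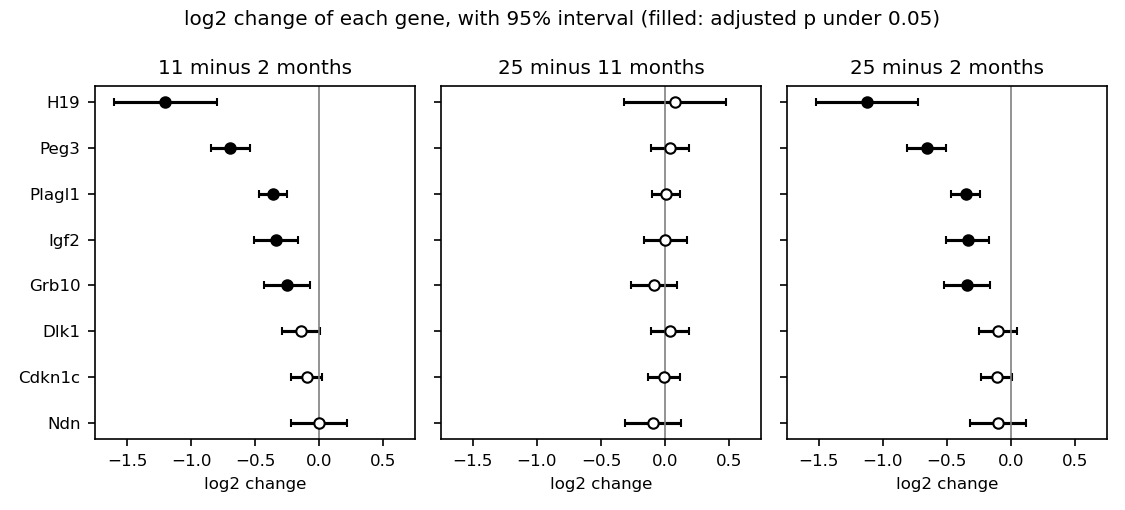
Difference in log2 signal between ages for the 8 genes, with 95% intervals from limma on 18 arrays. Filled points passed an adjusted p of 0.05. H19 and Peg3 lie farthest below 0 in both comparisons with 2 months (H19 -1.20 and -1.12), and every interval of 25 minus 11 months includes 0.

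From 11 to 25 months the 8 genes had log2 changes between -0.10 (Ndn) and 0.08 (H19). No gene was called by limma, 0 had an unadjusted p under 0.05, and 0 were called by the one-way ANOVA with Tukey that the series text names. Over the whole table limma called 0.0915% of probesets lower and 0.0588% higher, 23 in all, while the ANOVA with Tukey called 461 and limma with array weights 185. The intervals set how large a change could have gone unseen. That of H19 ran from -0.32 to 0.48, that of Igf2 from -0.17 to 0.17, that of Peg3 from -0.11 to 0.19 and that of Grb10 from -0.27 to 0.09. Over the 3 ages together limma's moderated F statistic called H19, Igf2, Peg3, Plagl1 and Grb10, 5 of 8, against 19.2% of all probesets.

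Of 54 other imprinted genes on the list 37 were measured, and from 2 to 11 months 5 rose and 3 fell, with a median log2 change of -0.02, equal to that of all probesets. In limma 18 of the 37 had an unadjusted p under 0.05 there. Among all probesets 11.9% were called higher and 7.18% lower by 11 months, and 10.5% and 6.95% from 2 to 25 months. These shares are the background for the counts of the lists below too. Nnat, a small membrane proteolipid, rose (log2 change 0.68, SE 0.15, limma adjusted p = 0.00368) from a mean of 5.92 at 2 months, which is not above background, so no fold is given. Asb4, a ubiquitin-ligase adaptor, rose by 0.45 and Sgce, a sarcoglycan, by 0.35, and Airn, the noncoding RNA antisense to Igf2r, fell by 0.51 on the log2 scale (adjusted p between 0.00311 and 0.00676). The other genes called between these ages had log2 changes of -0.25 (Mkrn3), -0.15 (Rasgrf1), 0.38 (Dcn) and 0.32 (Ube3a). Mkrn3 (means 5.46 and 5.21) and Rasgrf1 (4.99 and 4.85) lay under the background mark at both ages, so of the 3 called lower only Airn was measured above it. Dcn and Ube3a were named with their values in view. In the fit with signal range as covariate the calls of Asb4, Sgce and Airn were lost (adjusted p 0.0896, 0.124 and 0.0965). The whole list then had 1 higher and 0 lower. From 2 to 25 months 3 rose and 4 fell, and the amino acid transporter Slc38a4 moved most, by -0.85 (SE 0.13, adjusted p = 0.000149). After 11 months 0 of 37 passed in limma, 7 had an unadjusted p under 0.05, and the ANOVA with Tukey called 1 higher and 1 lower. Slc38a4 had the smallest p there (log2 change -0.54, adjusted p = 0.113).

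**Figure D3:**
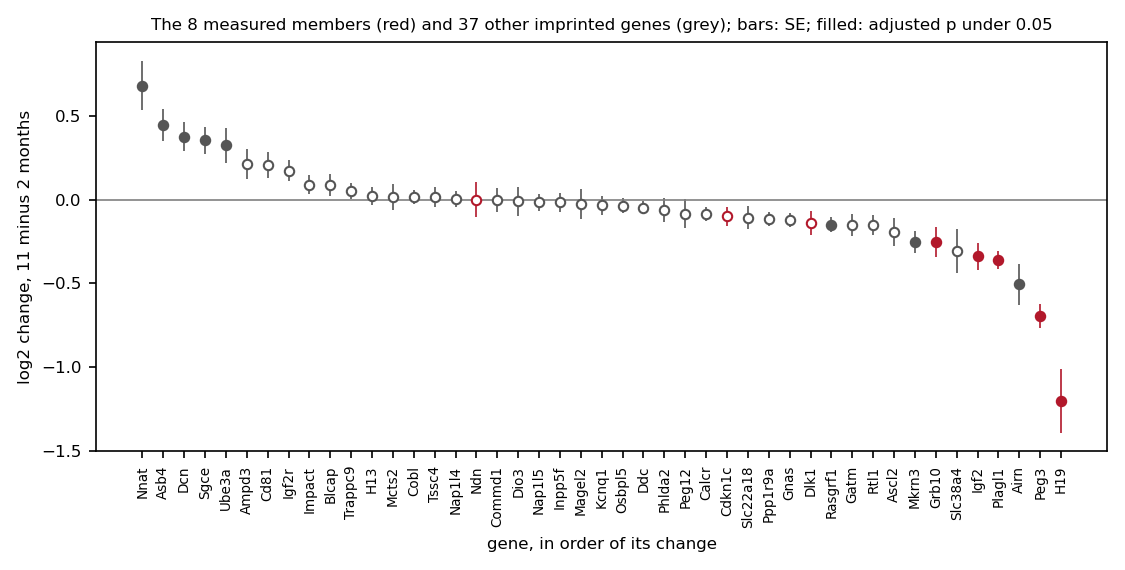
log2 change from 2 to 11 months of the 8 network genes (red) and of 37 other imprinted genes (grey), in order of size. Bars are SE and filled points passed an adjusted p of 0.05. H19 (-1.20) and Peg3 (-0.69) stand at the low end, Nnat (0.68) at the high end, and most other imprinted genes lie near 0.

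Around Igf2, 15 of 19 receptors, binding proteins and partners were measured. From 2 to 11 months 2 rose and 2 fell. The circulating and local growth factor Igf1 fell by 0.58 (SE 0.10, limma adjusted p = 0.000439) and the docking protein Irs1 by 0.88 on the log2 scale (SE 0.17, adjusted p = 0.00198). The growth hormone receptor Ghr rose by 0.27 (adjusted p = 0.0108), a call lost in the signal-range fit and without the 3 keratinocyte-high arrays. The binding protein Igfbp4 also rose by 0.27 (adjusted p = 0.0239), a call lost in 7 of the 30 alternatives that kept the threshold, among them without replicate 2 of 2 months and without replicates 5 or 6 of 11 months. From 2 to 25 months 1 rose and 4 fell, among them Igf1 (-0.75), Irs1 (-0.98) and Igfbp6 (-0.38), each with an adjusted p under 0.05 in all 30 alternatives. The mean of Igf1 at 25 months was 5.93, level with the background mark, so the size of its fall may be understated. Igf2r was higher by 0.24 at 25 months (limma adjusted p = 0.0129, but 0.0784 without the 3 arrays of narrowest signal range). From 11 to 25 months Igfbp6 alone passed in limma (-0.34, adjusted p = 0.0337), while the ANOVA with Tukey called 2 genes of the list lower. The limma call of Igfbp6 was lost without the 3 keratinocyte-high arrays, and without any 1 of replicates 1, 2, 4 and 5 of 11 months or 2, 3, 4 and 6 of 25 months. In the insulin pathway around Grb10, 11 of 15 genes were measured, and Irs1 was the 1 called in each comparison with 2 months.

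Of 29 juvenile growth and cell-cycle genes 22 were measured, and 2 rose and 2 fell by 11 months. These 4 (Cdk4, Mcm2, E2f1 and Hmga2) changed by at most 0.27 on the log2 scale, and all 4 calls were lost in the signal-range fit and without the 3 keratinocyte-high arrays. Single arrays ended them too: replicate 5 of 11 months for Cdk4, replicate 6 of 2 months for Mcm2, and replicate 4 of 2 months or 5 of 11 months for E2f1, while Hmga2 was lost in 18 of 30 alternatives. E2f1 lay under the background mark at both ages. The kinase Cdk2 was the 1 gene of the list lower at 25 than at 2 months (-0.31, SE 0.05, limma adjusted p = 0.000206). The other inhibitors of the cell cycle, Cdkn1c's relatives and the retinoblastoma family, were all measured, 9 of 9. By 11 months 2 rose, the kinase inhibitor Cdkn2c (0.53, adjusted p = 0.00418) and the pocket protein Rbl1 (0.23, adjusted p = 0.00642), both calls lost in the signal-range fit. Rbl1 lay under the background mark at 2 months. At 25 months 5 were higher than at 2 months and 1 lower. Cdkn1a, which encodes p21, was 1.56-fold higher (log2 change 0.64, SE 0.13, adjusted p = 0.00133), Rb1 rose by 0.33 and Rbl1 by 0.26, and Cdkn1b, which encodes p27, fell by 0.24. After 11 months 0 of 9 passed, with 3 at an unadjusted p under 0.05 and 2 higher and 1 lower by the ANOVA with Tukey.

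In the Notch pathway around Dlk1, 14 of 15 genes were measured, with 2 higher by 11 months (Rbpj and Hes1) and 2 lower at 25 than at 2 months. Neither Rbpj (0.21) nor Hes1 (0.23) passed with the ANOVA and Tukey, a further quantile normalization or the signal-range covariate, nor without any 1 of replicates 2 and 6 of 2 months and 5 of 11 months. Notch2 fell by 0.19 (SE 0.05, limma adjusted p = 0.00931) from 2 to 25 months, and Heyl was lower by 0.21 with a call lost in 13 of 30 alternatives. Among 16 measured regulators of DNA methylation and imprints, 1 was higher and 2 were lower at 11 months. The DNA methyltransferase Dnmt3a fell by 0.52 by 11 months (SE 0.06, adjusted p = 9.93e-06) and had a log2 change of -0.66 from 2 to 25 months, and it passed in all 30 alternatives. The calls of Ctcf, the insulator protein of the H19 and Igf2 locus (0.18), and of Tet3, a methylcytosine dioxygenase (-0.32), were lost in 22 and 15 of 30. At 25 months 2 of the 16 were higher and 2 lower than at 2 months. From 11 to 25 months limma called 0 of the 22 cell-cycle genes, 0 of the 14 Notch genes, 0 of the 11 insulin genes and 0 of the 16 regulators, with 3, 2, 0 and 1 at an unadjusted p under 0.05. The ANOVA with Tukey called 1, 2, 0 and 0 of them, all lower. The median log2 change from 2 to 11 months was -0.05 for the list around Igf2, -0.07 for cell-cycle genes, 0.09 for the inhibitors, -0.01 for the Notch list, 0.03 for the insulin list and -0.08 for the regulators, beside -0.02 for all probesets.

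Markers of other cell types moved beside these genes, and their part in the falls was not tested. The median log2 change from 2 to 11 months was -0.11 for satellite cells, -0.50 for tenocytes, 0.01 for fibro-adipogenic progenitors and 0.67 for adipocytes, beside -0.02 for all probesets. Satellite-cell markers had 1 of 8 higher and 2 lower at 11 months. The 1 higher was Itga7 (0.26, limma adjusted p = 0.00789). That call was lost in the signal-range fit and without the 3 keratinocyte-high arrays. Pax7, the defining transcription factor, fell by 0.31 (limma adjusted p = 0.00709; lost in the signal-range fit and without the 3 keratinocyte-high arrays) and Chodl by 0.35 (adjusted p = 0.009). The sum of the 8 was 1233 to 1399 intensity units at 2 months, 1215 to 1509 at 11 months and 1208 to 1375 at 25 months, with 3 of the 8 under the background mark at each age. Bright genes weigh most in this sum: mean log2 signals at 11 months were 8.90 for Sdc4 and 8.88 for Itga7, against 5.98 for Pax7. A fall of a dim marker such as Pax7 hardly moves it. Tenocyte markers had 4 of 5 measured lower at 11 months and 4 of 5 lower at 25 than at 2 months. Their sums went from 1537 to 2230 at 2 months, over 1094 to 1538 at 11 months, to 882 to 1203 at 25 months. The tendon proteoglycan Kera fell by 1.04 and Tnmd, tenomodulin, by 0.63 by 11 months. Markers of fibro-adipogenic progenitors had 2 of 7 lower at 11 months and 5 of 7 lower at 25 than at 2 months, with sums of 1256 to 1735, 1373 to 1627 and 1084 to 1279.

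The remaining marker lists had few or unstable calls between 2 and 11 months. Adipocyte markers had 3 of 5 higher, with summed levels of 344 to 525, 391 to 975 and 357 to 665 at 2, 11 and 25 months. The adipocyte calls (Lep, Adipoq and Cidec) were lost in 4, 11 and 13 of 30 alternatives, and 0 of 5 was higher with the ANOVA and Tukey, with the signal-range covariate or without the 3 keratinocyte-high arrays. Lep lay under the background mark at 2 months. Endothelial markers had 1 of 5 higher, with sums of 1651 to 1901, 1660 to 1967 and 1549 to 1745. Pericyte and smooth-muscle markers had 2 of 5 higher (2159 to 2724, 2501 to 3202 and 2295 to 2884), and macrophage markers 1 of 5 (482 to 692, 598 to 710 and 551 to 697). Under the same 3 settings 0 endothelial and 0 macrophage markers were higher. The endothelial call (Emcn) was lost in 10 of 30 alternatives, the macrophage call (Csf1r) in 16 and that of the pericyte gene Kcnj8 in 7, while Rgs5, the other pericyte marker, passed in all 30. Schwann-cell markers had 0 of 2 and keratinocyte markers 0 of 6 called, with 1 and 2 at an unadjusted p under 0.05. Myofibre markers had 1 of 4 higher (Mb) and 1 lower (Tnnt3), the second call lost in 19 of 30 alternatives. From 11 to 25 months limma called 2 markers, Dpt of the progenitors (-0.51) and Chad of the tenocytes (-0.80), both lower, with calls lost in 13 and 14 of 30 alternatives, most of them with a single array left out. The ANOVA with Tukey called 5 of 7 progenitor markers and 2 of 5 tenocyte markers lower, and without the 3 keratinocyte-high arrays limma called 0 of either list. Of 8 measured genes of developing muscle 3 fell by 11 months, and 2 were lower at 25 than at 2 months. Actc1, the cardiac actin, had a log2 change of -3.26, Mybph one of -1.77 and Myog, which encodes myogenin, one of -0.58. After 11 months 0 of these 8 passed in limma, although all 8 changes were above 0, 5 had an unadjusted p under 0.05 and the ANOVA with Tukey called 2 higher.

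Genes whose signal ran most like that of a network gene over the 18 arrays were found by Pearson's r, as a description that contains the age difference itself. For H19 they were Lrp6 (r = 0.93), Cdc14a (0.92), Arhgef7, Adamts20 and Map2k3 (0.91 each). Nearest to Igf2 were Setbp1 and C1qtnf6 (0.91 each), Sypl2 and Igf1 (0.90 each) and Megf10 (0.89). For Peg3 they included 3 collagen genes, Col11a1 (0.93), Col1a1 and Col1a2 (0.92 each), with Camkk2 and Preb (0.92 each). Dlk1 ran closest to Rprm and Grin2d (0.91 each), Oprd1 (0.90), Tmem151b and Dpm3 (0.89 each). Dlk1 had no called age difference, and its means of 6.14 to 6.28 lay close to the background mark of 5.93. The part of array signal range in these r was not tested.

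Whether network genes varied together from array to array was asked with the age means taken out. Of 8 planned pairs 6 could be tested, and 0 passed after adjustment over the 6. Plagl1 and Igf2 came nearest, with r = 0.71 over 18 arrays (permutation p = 0.0086, Benjamini-Hochberg p = 0.0516) and Spearman's rho = 0.64 (permutation p = 0.0215, adjusted 0.129). This pair lay at the threshold: with all permutations within ages counted, the exact p of r was 0.00835 and 0.0501 after adjustment, and 100000 random ones can fall on either side of 0.05. Age by age r was 0.87 (2 months), -0.33 (11 months) and 0.65 (25 months), and it was 0.58 without the 2 arrays farthest from the median of Plagl1. The neighbours H19 and Igf2 had r = 0.54 (permutation p = 0.0563, adjusted 0.169) and rho = 0.48 (p = 0.0939, adjusted 0.282). Their r was 0.84 within 2 months, -0.13 within 11 and 0.12 within 25 months, and without the 2 arrays farthest from the median it was 0.13, so the relation rests on those arrays. The other 4 pairs had r between 0.21 (Plagl1 with Cdkn1c) and 0.37 (Plagl1 with Dlk1), with adjusted p of 0.173 to 0.308. At 11 and 25 months Plagl1 lay near background, where its own variation is of low precision. Array signal range was not taken out of the r given here, and its part in them was not tested.

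**Figure D4:**
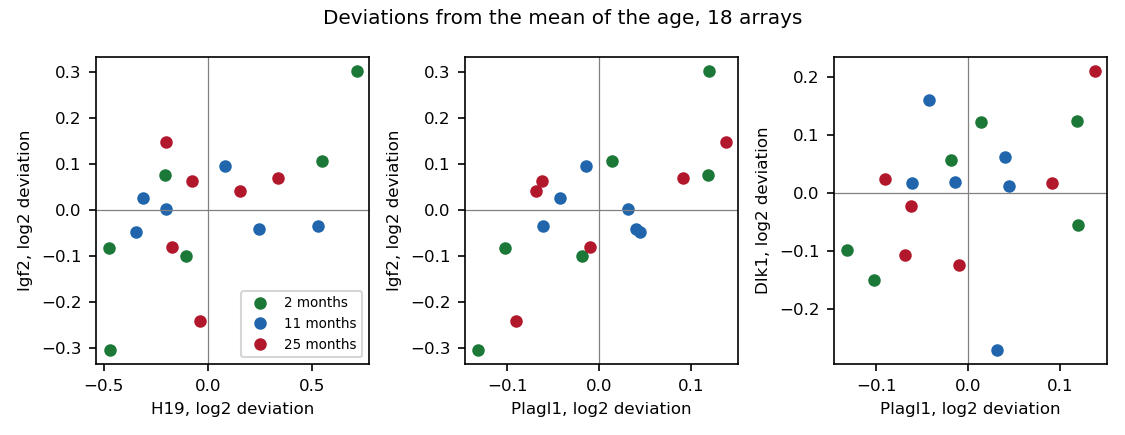
Deviation of each array from the mean of its age (log2) for 3 pairs of genes, coloured by age, 18 arrays in all. The 2-month arrays spread along the diagonal for H19 with Igf2 (r = 0.84 within that age) and for Plagl1 with Igf2 (0.87), and the 11-month arrays do not (-0.13 and -0.33).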

How the data were processed

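Gene expression in gastrocnemius was measured on 18 arrays, 6 at each age. The authors deposited 1 intensity value per probeset and array on a linear scale for 15300 probesets. Expression Console 1.2.1, RMA and the build mm8 are named per the submitters' processing notes, and GeneSpring GX 14.9 per the series text, without saying which step put the values on that scale. Log2 was taken here. Platform annotation gave 13592 probesets 1 symbol, 941 several and 767 none, and a RefSeq table changed 0 symbols. It may be old. Promoter and miRNA sequences are RefSeq's (GRCm38.p6).

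limma 3.58.1 in R 4.3.3 fitted 1 mean per age over all 18 arrays, with Benjamini-Hochberg adjustment over all probesets in each contrast. The model was tested on simulated data. Pairs of genes were compared by 100000 permutations within ages (two-sided), and summaries used Python 3.11.15, pandas 2.3.3, numpy 2.4.6, scipy 1.17.1 and matplotlib 3.10.9. The number of arrays limits the precision. The labels give no array batches or dates. All 10 network genes were named whatever their values; from each of 8 gene lists and 10 marker lists up to 3 called genes per direction and contrast could be named, by smallest adjusted p, or otherwise the 1 of smallest p. For likeness, the 5 most similar named genes were taken for H19, Igf2, Peg3 and Dlk1. The genes and lists were chosen with earlier results of these data known.

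The 32 alternatives were the study's one-way ANOVA with Tukey, further quantile normalization, median centring, no dim probesets (lowest 25% left out), a trended robust variance, array weights, a replicate block, only the ages compared, 1 probeset per gene, the signal range as a covariate, leaving out the 3 arrays of narrowest range, an adjusted p of 0.01, a fold of at least 1.5, each of the 18 arrays left out, and, added after seeing the data, the 3 arrays of highest Krt14 signal left out. Genes outside the network were followed through 30 of them, without the stricter thresholds. Replicate numbers are not stated to mark a shared litter or day.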

Additional observations from a re-analysis of the deposited data

Results flagged for a closer look

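In 27 sets of 6 arrays (9 probesets at 3 ages), 1 array stood far from the others of its age. It was replicate 5 of 11 months for Dlk1, with a log2 signal of 5.87 where the other 5 arrays lay between 6.15 and 6.30. The gap made up 0.65 of the range of the age. Dixon's 95% critical value was exceeded, as chance does in about 1 in 20 such sets.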

How the results depend on the processing

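H19 and Peg3 were called lower than at 2 months, at both later ages, in all 32 alternatives. With a fold of at least 1.5 they were the 2 genes called in each comparison with 2 months, in place of 5. Igf2 at 11 months was lost also in the signal-range fit, and Grb10 at 11 months in 18 of 32 alternatives. Over the 3 ages together, 3 genes (H19, Peg3 and Plagl1) were called without the 3 arrays of narrowest signal range, in place of 5. Those arrays were replicates 4 and 6 of 2 months and 5 of 25 months, so leaving them out also made the 2-month group smaller. No direction of a called gene reversed. The number of pairs passing within ages was 1 (Plagl1 with Igf2) with median centring, and 0 to 1 when each array was left out in turn, from 20000 permutations each, with that pair gained without replicates 1, 2, 4, 5 or 6 of 11 months or 3 or 4 of 25 months. Counting all permutations exactly, added after random ones of another start had put the pair under the threshold, gave 0. With the replicate number as a block (replicate block) 5, 0 and 5 genes were called for 11 against 2, 25 against 11 and 25 against 2 months, so no call of the 8 genes changed. Deviations of same-numbered arrays correlated between -0.33 and 0.42 (median -0.03, 18 pairs) against -0.45 to 0.47 (median 0.01, 90 pairs) for other numbers, so the numbers were not taken to pair the arrays. Taking the mean of all of a gene's probesets was not run, since each gene had 1.

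Over all probesets 2919 were called for 11 against 2 months, with 959 under the signal-range covariate, 1555 without the narrowest arrays, 1351 without the 3 arrays of highest Krt14 and 1895 without replicate 5 of 11 months. An adjusted p of 0.01 left 1256 and a fold of 1.5 left 138. For 25 against 11 months 23 were called, and 461 by ANOVA with Tukey, 185 with array weights, 45 with only the ages compared, 37 with the covariate, 8 with 1 probeset per gene, 6 with the replicate block, 2 without the Krt14 arrays and down to 3 when single arrays were left out. An adjusted p of 0.01 gave 3 and a fold of 1.5 gave 8. For 25 against 2 months 2666 were called, with 1419 at an adjusted p of 0.01 and 199 at a fold of 1.5. Over the 3 ages 2936 were called, with 1754 without the narrowest arrays, 1941 without the Krt14 arrays and 1484 at 0.01. Signals near background limit what can be said of Plagl1, Dlk1 and Peg3, and of Nnat, Mkrn3, Rasgrf1, E2f1, Rbl1, Lep and Igf1.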
